A study of Homo sapiens with 5 samples.

Results

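The BCL2 family survival and death genes were followed in TF-1, a human erythroleukaemia line that depends on GM-CSF and is used to study erythroid progenitors. Every probe set whose only gene symbol in the array's annotation was BCL2, BCL2L1, MCL1, BCL2A1, BAX, BAK1, BID, PMAIP1, BCL2L11 or BNIP3L was taken. This gave 24 probe sets for 10 genes, out of 19065 probe sets with 1 symbol for 11963 genes. A probe set is a group of short probes on the array that together give 1 signal for a transcript, and its signals are given on the log2 scale, where a difference of 1 is 2-fold.

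There were 5 arrays, 1 for each group. Cells with the empty retroviral vector MSCV-GFP received GM-CSF (5 ng/mL), Steel factor (SF, which binds the receptor c-Kit, 20 ng/mL) or erythropoietin (Epo, dose not given in the sources used here). Cells with the same vector carrying an SCL that is defective in DNA binding, labelled DbSCL and called mutant SCL here, likewise received SF or Epo. All groups were kept without growth factor overnight before 6 h of stimulation, and every group then received a cytokine. SCL, the product of TAL1, is a basic helix-loop-helix factor of blood progenitors, and the series set out to find genes regulated by c-Kit and by SCL. Whether the transduced cells were a pool or a clone is not given in the sources used here. With 1 array per group no difference between a pair of groups could be tested, and each difference below is between single arrays unless it is said to come from the fit over 4 arrays.

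Proteins of the BCL2 family decide whether the outer mitochondrial membrane is opened, which releases cytochrome c and starts the caspases. Survival members (BCL2, BCL2L1, MCL1, BCL2A1) hold the pore-forming effectors BAX and BAK1 in check, and BH3-only members (BID, PMAIP1, BCL2L11) either block the survival members or activate the effectors. In red cell precursors, survival signals from the Epo receptor and c-Kit act partly through this family, BCL2L1 is the main survival member of late erythroblasts, and BNIP3L marks mitochondria for removal from maturing red cells.

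Of the 24 probe sets, 11 were above the floor for low signals (4.45, the 40th percentile of all values) on all 5 arrays. Another 2 were above it on 1 array and 11 on none. By its brightest probe set (highest mean signal), a gene of each class was measured on all arrays, 8 genes in total. BCL2A1 and BAX were not above the floor on any array, so no difference is given for them. The brightest BAX probe set ran from 4.14 to 4.44, just under the floor, and that of BCL2A1 from 2.44 to 2.61. Signals of different probe sets were not compared with each other, because probes bind with different strength.

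PMAIP1, BAK1 and 1 of the BCL2 probe sets were the ones among the 11 whose signals ranged over at least 1.5-fold across the 5 arrays. PMAIP1 had the widest range of the 8 genes, 1.09, and 3.60% of the 7918 genes that cleared the floor throughout had a wider one. BAK1 followed with 0.76 (13.8% wider). BID (0.42), BCL2 (0.38) and BCL2L1 (0.36) lay in the middle of all genes. MCL1 (0.23), BCL2L11 (0.19) and BNIP3L (0.15) had narrow ranges, with 78.6%, 83.2% and 88.7% of genes wider.

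**Figure D1:**
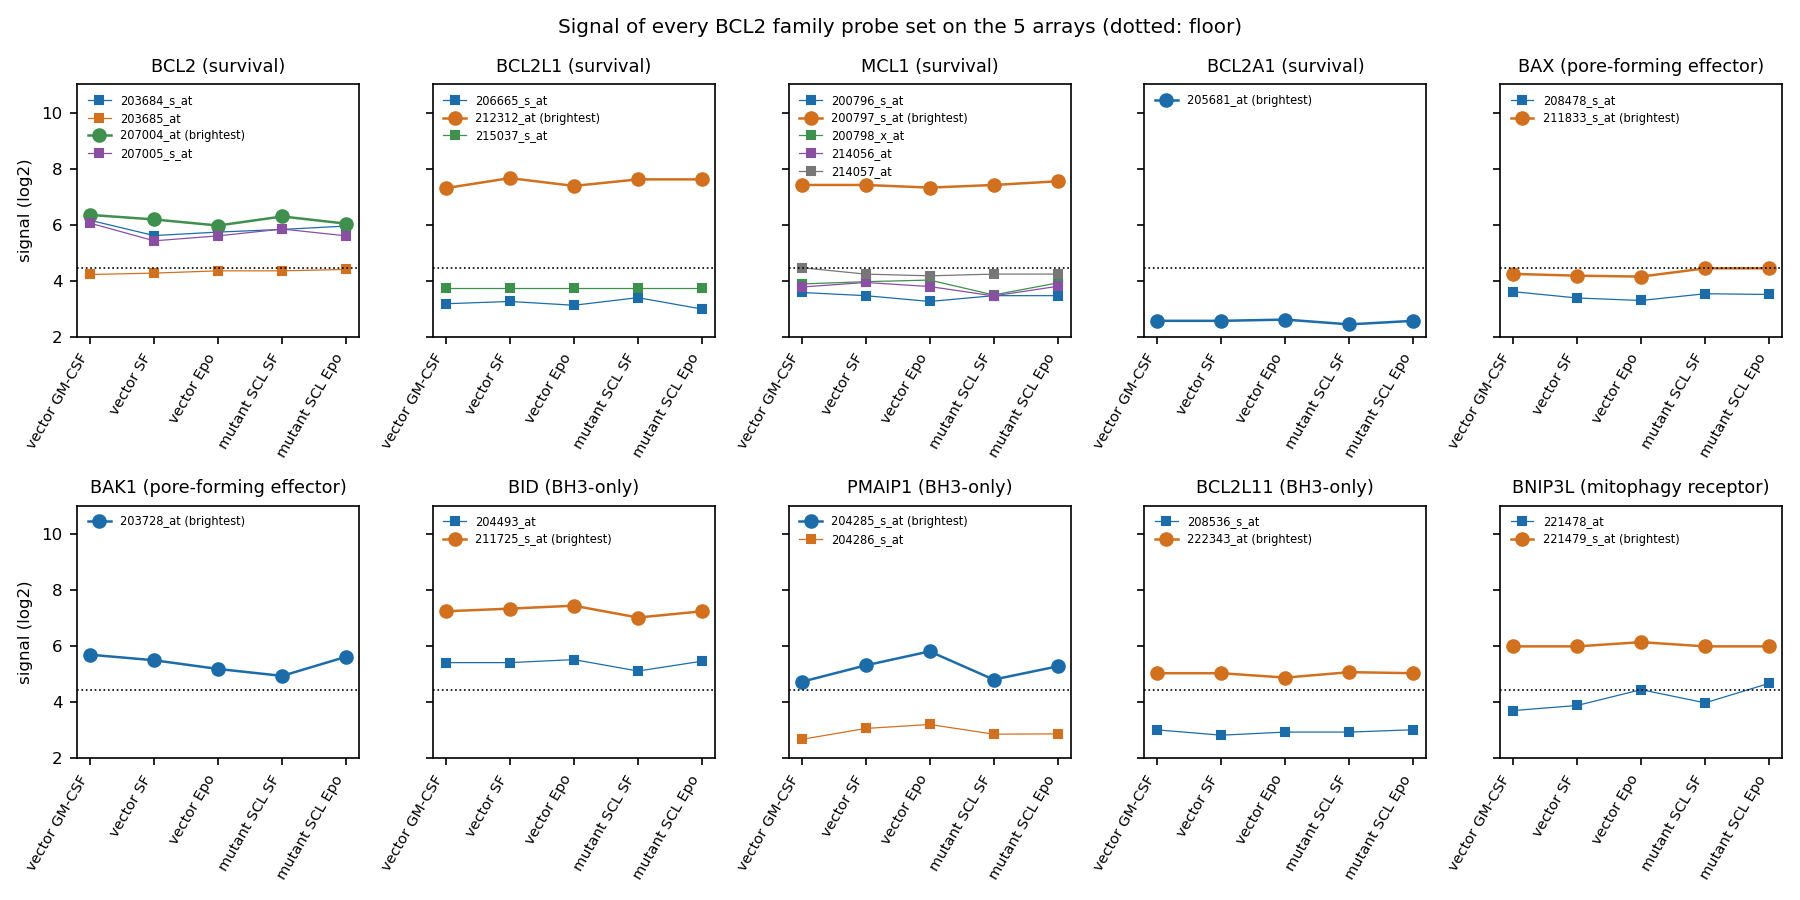
Log2 signal (vertical axis) of all 24 probe sets on the 5 arrays (horizontal axis), 1 panel per gene; large circles mark the brightest probe set of a gene, small squares the others, lines join the points of 1 probe set, and the dotted line is the floor of 4.45. PMAIP1 is lowest with GM-CSF (4.72) and highest in vector cells with Epo (5.81), and all probe sets of BAX and BCL2A1 lie under the floor.

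Start-site sequences of the members are shown for the genes with the widest range, PMAIP1 and BAK1, and, for contrast, for BAX, whose window was the richest in the E-box letters to which basic helix-loop-helix factors bind. Each runs from 250 bases before to 50 bases after the start, from RefSeq on GRCh38.p14, 5' to 3' on the gene's strand. Windows were taken for 8 of the 10 genes, and BID and BCL2L1 had several. Capitals mark CANNTG (the E-box letters), GATA, and TTCNNNGAA (the letters of STAT sites), searched on both strands.
PMAIP1: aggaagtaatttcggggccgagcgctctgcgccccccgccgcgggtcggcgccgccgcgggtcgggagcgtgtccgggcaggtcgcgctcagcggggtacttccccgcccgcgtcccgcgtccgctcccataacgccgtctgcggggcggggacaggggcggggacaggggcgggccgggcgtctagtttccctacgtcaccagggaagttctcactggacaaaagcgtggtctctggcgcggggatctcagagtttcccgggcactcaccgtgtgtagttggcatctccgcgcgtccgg
BAK1: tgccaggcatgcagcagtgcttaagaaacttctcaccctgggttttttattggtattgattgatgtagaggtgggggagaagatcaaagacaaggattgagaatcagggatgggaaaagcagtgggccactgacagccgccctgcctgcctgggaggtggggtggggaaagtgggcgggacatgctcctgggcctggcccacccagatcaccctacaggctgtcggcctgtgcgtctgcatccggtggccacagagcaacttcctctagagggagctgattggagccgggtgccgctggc
BAX: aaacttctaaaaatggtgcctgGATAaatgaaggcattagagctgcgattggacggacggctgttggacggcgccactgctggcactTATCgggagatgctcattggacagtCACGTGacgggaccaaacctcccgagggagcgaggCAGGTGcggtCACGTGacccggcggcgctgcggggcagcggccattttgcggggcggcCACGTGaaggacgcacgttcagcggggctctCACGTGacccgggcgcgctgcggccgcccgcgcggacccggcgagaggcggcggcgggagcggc
The PMAIP1 window lies at chr18:59899746-59900045 on the plus strand, that of BAK1 at chr6:33580227-33580526 on the minus strand, and that of BAX at chr19:48954625-48954924 on the plus strand. The first pair holds none of the 3 motifs. BAX holds 5 matches to CANNTG, of which 4 read CACGTG, and 2 to GATA. Of 35116 windows of the same length, 68.7% hold CANNTG, 49.7% GATA and 7.66% TTCNNNGAA. Of the 13 windows of the 8 genes, 5 hold CANNTG, 5 GATA and 1 TTCNNNGAA. By gene, 3 (BAX, BCL2A1 and BID) hold any of these motifs and 5 none. The shares of all windows are for each motif alone and cannot be set beside that count by gene. TTCNNNGAA was found in BCL2A1 alone. A match is a run of letters and not a shown binding site, and its lack here says nothing of sites elsewhere.

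An approximate error was taken from how far the mutant SCL difference under SF departed from that under Epo over all genes, which gave a spread of 0.13 to 0.25 (log2) for a single difference, depending on the signal. It includes any true dependence of mutant SCL on the cytokine, and the GM-CSF array has no part in it. Probe sets of the same gene also disagreed: over 2216 genes the median disagreement between the brightest and the next one ran from 0.13 for SF minus Epo in vector cells to 0.25 for Epo minus GM-CSF, where 10% of genes were beyond 0.76. A further limit is repeated values. On at least 2 arrays the same value was listed for 7 of the 11 member probe sets above the floor, and for 58.3% of all probe sets with 1 symbol. A difference of exactly 0 in these data therefore does not show that the amounts of RNA were equal.

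PMAIP1 encodes NOXA, a BH3-only protein that binds MCL1 and BCL2A1. Its signal was 4.72 in vector cells with GM-CSF, 5.31 with SF and 5.81 with Epo, and 4.80 and 5.28 in mutant SCL cells with SF and Epo. It was thus lowest with GM-CSF and highest in vector cells with Epo, and in mutant SCL cells lower than in vector cells under either cytokine. Vector GM-CSF and mutant SCL SF (0.08 apart) and mutant SCL Epo and vector SF (0.03 apart) were closer than the spread of 0.17, and the other steps in this order were larger, 0.47 and 0.50.

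PMAIP1 was 1.09 (2.12-fold) higher with Epo than with GM-CSF in vector cells. It was the 1 of 12 member probe sets compared that reached 2-fold in this comparison, where 3.42% of all 12200 probe sets were 2-fold or more higher and 0.172% lower. With SF it was 0.59 above GM-CSF, just over 1.5-fold, as were 7.06% of all probe sets. The call against GM-CSF was lost with the floor at the 60th percentile (0.39) and with the mean of both PMAIP1 probe sets (0.06). The mean with GM-CSF was under the floor and was set to it, which made the 0.06 small. As deposited, under the floor on both arrays, the second probe set was 0.53 higher with Epo. In bulk RNA, a higher signal per cell and more cells with the transcript cannot be told apart. The SF and Epo comparisons share the GM-CSF array. SF against Epo gave −0.50 in vector cells and −0.47 in mutant SCL cells, which are separate pairs of arrays. A probe set with SF below Epo by more than 2 spreads in both pairs, as PMAIP1 was, was seen in 0.652% of the 11038 above the floor on all arrays.

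With mutant SCL, PMAIP1 was 0.51 lower under SF (4.80 against 5.31) and 0.53 lower under Epo (5.28 against 5.81). Each value is close to 3 spreads and short of 1.5-fold. These differences come from the same 4 arrays as the SF minus Epo differences in vector and mutant SCL cells. By arithmetic, the gap within each pair of differences has the same size. The likeness within the pairs is therefore 1 observation and not independent evidence. With the mean of both PMAIP1 probe sets the difference under Epo was −0.06, as was SF minus Epo in vector cells. In each the lower mean was under the floor and was set to it. Under the higher floor both were −0.39. Under SF neither setting leaves a value, since both arrays are then under the floor. Of all probe sets above the floor, 2.07% were lower by more than 2 spreads under both cytokines. The second PMAIP1 probe set was under the floor on all arrays and gives no usable difference; as deposited it was also lowest with GM-CSF (2.67) and highest in vector cells with Epo (3.20).

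Some array controls ran opposite to PMAIP1 and others did not. The hybridization controls, RNA added in equal amount to every array, averaged 10.53, 10.02 and 9.58 in vector cells with GM-CSF, SF and Epo, and 10.57 and 9.78 in mutant SCL cells with SF and Epo. For 18S ribosomal RNA these arrays gave 9.02, 8.22, 7.45, 8.32 and 7.99. The vector Epo array, highest for PMAIP1, was lowest for both, and the pair of arrays lowest for PMAIP1 was the highest for both. For 28S ribosomal RNA the values were 8.97, 8.43, 8.28, 8.34 and 8.54 in the same order of arrays, so that mutant SCL SF, low for PMAIP1, was low here too. The 3' signal of beta-actin was nearly level, 11.82 to 11.90. Its 5' signal was not, at 9.27, 10.01, 9.15, 8.49 and 8.88 in the same order of arrays. The order of the arrays was shared widely too: 17.6% of the 7918 genes were lowest with GM-CSF and highest in vector cells with Epo. The part of this in the PMAIP1 differences was not tested. Under quantile normalization PMAIP1 was 1.14 higher with Epo than with GM-CSF, and under cyclic loess 1.21.

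The genes most like PMAIP1 over the 5 arrays, after each gene's mean was taken off, were MTX2, a mitochondrial outer membrane import gene, the kinase gene DYRK1A, and ITM2B. Their root mean square differences from PMAIP1 were 0.04, 0.04 and 0.05, against a median of 0.40 over all other genes. With 5 arrays and an order that many genes share, this is a description of likeness only.

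BID links death receptors to mitochondria once caspase 8 has cut it. Its brightest probe set read 7.24 with GM-CSF, 7.34 with SF and 7.44 with Epo in vector cells, and 7.02 with SF and 7.24 with Epo in mutant SCL cells. The second read 5.41, 5.41, 5.52, 5.11 and 5.46 in the same order. In both the mutant SCL SF array was lowest and the vector Epo array highest. Mutant SCL minus vector was −0.32 and −0.30 under SF, and −0.20 and −0.06 under Epo, all within 2 spreads. BCL2L11 encodes BIM, which cytokine signalling is known to restrain in blood cells. It was 5.03 on 3 arrays, 4.87 in vector cells with Epo and 5.07 in mutant SCL cells with SF, and no step in this order exceeded its spread of 0.16.

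Of the effectors, BAK1 alone could be compared. BAK1 sits in the outer mitochondrial membrane and forms pores when activated. Its single probe set read 5.69 in vector cells with GM-CSF, 5.49 with SF and 5.18 with Epo, and 4.94 and 5.62 in mutant SCL cells with SF and Epo. The lowest array was thus mutant SCL SF, and mutant SCL Epo was among the highest. Mutant SCL minus vector was −0.56 under SF and 0.44 under Epo, or −3.28 and 2.57 when divided by the spread. In vector cells SF minus Epo was 0.31, and in mutant SCL cells −0.68, which was the 1 of 12 member differences past 1.5-fold there; 2.81% of all probe sets were 1.5-fold or more lower in that comparison. BAK1 was 0.51 lower with Epo than with GM-CSF, where 4.30% of all probe sets were as far down.

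The mutant SCL SF array had the highest 3' minus 5' signal of beta-actin, a sign of RNA or labelling quality, at 3.33, against 1.89 to 3.01 on the other 4. The vector SF array had the lowest. BAK1 and BID were both lowest on mutant SCL SF, and the part of array quality in this was not tested. With the floor raised to the 60th percentile mutant SCL minus vector for BAK1 was −0.07 under SF, less than its spread of 0.17, and 0.19 under Epo. SF minus Epo was then 0.07 in vector cells and −0.19 in mutant SCL cells, short of 1.5-fold, and Epo minus GM-CSF was −0.27. The mutant SCL SF and vector Epo signals of BAK1 lie under that floor. The genes most like BAK1 over the 5 arrays were TMEM147-AS1, MAP3K9 and PTGDR2, with root mean square differences of 0.07, 0.11 and 0.11 against a median of 0.32.

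**Figure D2:**
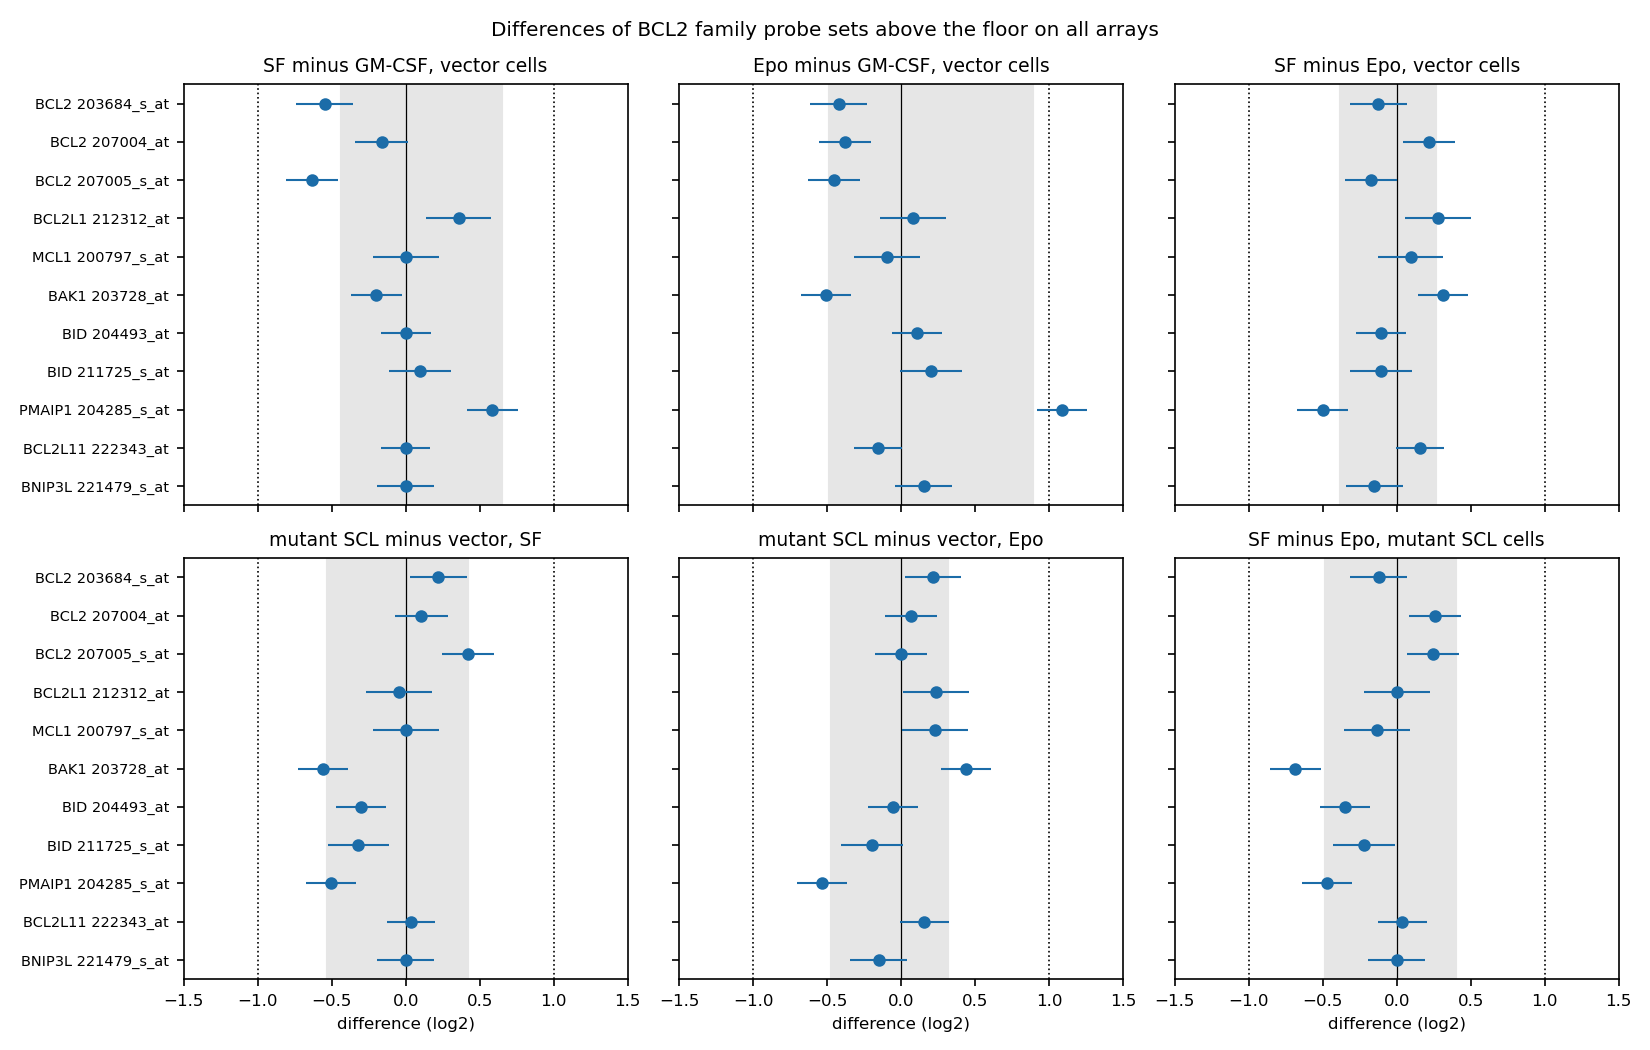
Log2 difference (horizontal axis) of the 11 member probe sets above the floor on all arrays, 1 panel per comparison; bars are plus and minus 1 spread, the grey band holds the middle 90% of all probe sets compared, and dotted lines mark 2-fold. PMAIP1 passes the 2-fold line with Epo against GM-CSF (1.09), and BAK1 lies below 0 with mutant SCL under SF (−0.56) and above 0 under Epo (0.44).

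BCL2, the survival gene that names the family, was highest with GM-CSF in each of its 3 probe sets above the floor. The brightest read 6.34 in vector cells with GM-CSF, 6.18 with SF and 5.97 with Epo, and 6.29 and 6.03 in mutant SCL cells with SF and Epo; the second read 6.15, 5.61, 5.73, 5.83 and 5.95, and the third 6.05, 5.42, 5.60, 5.84 and 5.60. The GM-CSF array stood above the other 4 in all 3, as it did for 28.4% of the 7918 genes. In the brightest probe set no step between arrays exceeded its spread of 0.18, and GM-CSF was 0.06 above mutant SCL SF. SF minus GM-CSF was −0.16, −0.55 and −0.63, of which the last passed 1.5-fold, as 1.34% of all probe sets did downward. Epo minus GM-CSF was −0.38, −0.42 and −0.45, each more than 2 spreads from 0. Of all probe sets compared, 10.1%, 7.83% and 6.26% were as far down, and the spread holds no error of the GM-CSF array. The direction against GM-CSF was thus shared by the 3 probe sets, all read on the same GM-CSF array, and the size under SF was not.

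Between SF and Epo the BCL2 probe sets did not share a direction. In vector cells they gave 0.22, −0.13 and −0.18, and in mutant SCL cells 0.26, −0.12 and 0.24. With mutant SCL they gave 0.11, 0.22 and 0.42 under SF and 0.07, 0.22 and 0.00 under Epo. Of these, 0.42 exceeded 2 spreads. A further BCL2 probe set lay under the floor on all arrays and gives no usable difference. As deposited it ran the other way against GM-CSF, lowest there (4.22) and highest in mutant SCL cells with Epo (4.40).

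BCL2L1, which encodes BCL-XL, read 7.30 in vector cells with GM-CSF, 7.66 with SF and 7.38 with Epo, and 7.61 on both mutant SCL arrays. The GM-CSF and vector Epo arrays were the low ones, 0.08 apart, and the other 3 lay within 0.05 of each other and at least 0.23 above them. SF was 0.36 above GM-CSF and 0.28 above Epo in vector cells, 1.61 and 1.25 spreads. Epo, whose receptor is known to maintain BCL-XL in erythroblasts through STAT5, gave 0.08 against GM-CSF, and this turned to −0.21 under quantile normalization and −0.12 under cyclic loess. Mutant SCL minus vector was −0.05 under SF and 0.23 under Epo. The other 2 BCL2L1 probe sets were under the floor, 1 of them with the same value (3.74) on all 5 arrays.

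MCL1, a survival protein of short life that early progenitors need, read 7.41 with GM-CSF and with SF in vector cells and with SF in mutant SCL cells, 7.32 in vector cells with Epo and 7.55 in mutant SCL cells with Epo. No step in this order exceeded the spread of 0.22. Its largest difference was 0.23, mutant SCL minus vector under Epo. Under quantile normalization it was instead −0.38 for Epo minus GM-CSF, with −0.23 for SF minus GM-CSF. Of its 4 other probe sets, 3 were under the floor everywhere and 1 was above it on the GM-CSF array alone (4.46).

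BNIP3L, also called NIX, was listed at 5.99 on 4 arrays and at 6.14 in vector cells with Epo. Its second probe set was above the floor on mutant SCL Epo alone. As deposited it read 3.70 with GM-CSF, 3.88 with SF and 4.44 with Epo in vector cells, and 3.97 and 4.67 in mutant SCL cells with SF and Epo. Both Epo arrays were above the other 3, but as 4 of these 5 values are under the floor, the difference that can be given is 0.22 for mutant SCL Epo over either vector Epo or mutant SCL SF. The brightest probe set gave −0.15 and 0.00 for the same pairs.

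**Figure D3:**
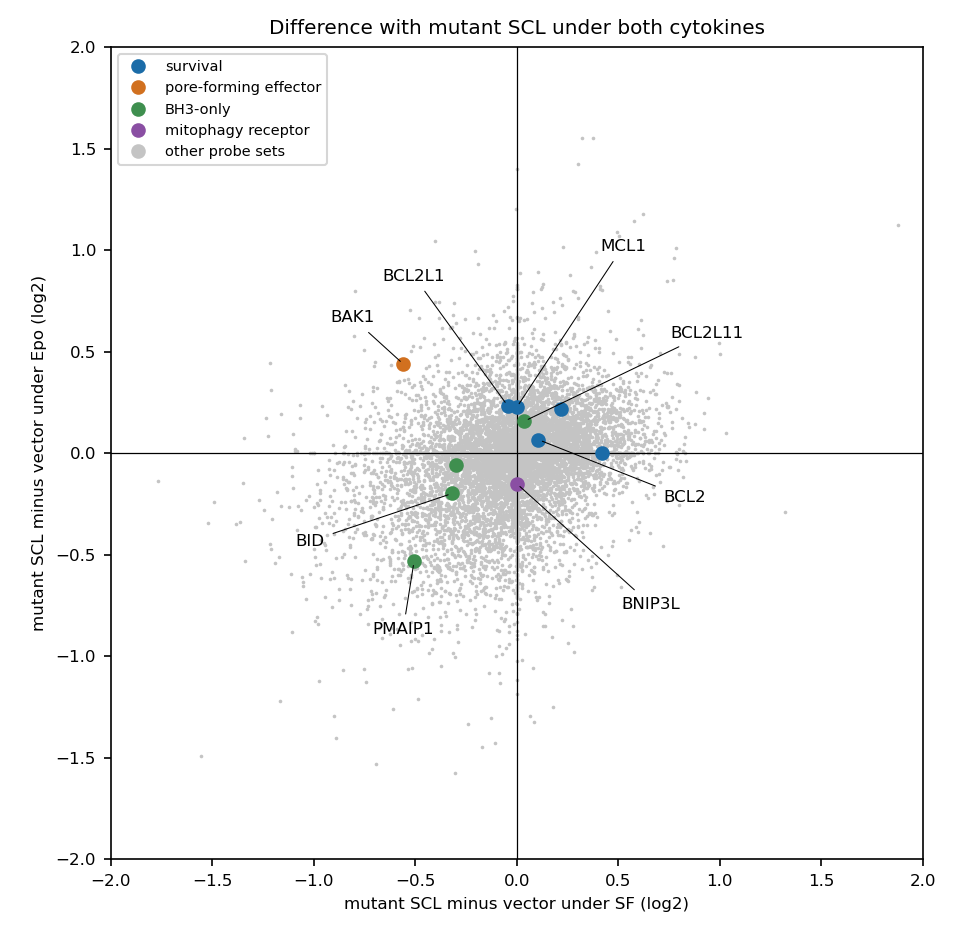
Log2 difference between mutant SCL and vector cells under SF (horizontal axis) and under Epo (vertical axis); each grey point is 1 of 11038 probe sets above the floor on all arrays, coloured points are the members by role, and the brightest probe set of each gene is named. PMAIP1 lies in the lower left (−0.51 and −0.53), BAK1 in the upper left (−0.56 and 0.44), and the brightest probe sets of BCL2, BCL2L1 and MCL1 between −0.05 and 0.23 on either axis.

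The arrays with SF and Epo cross vector and mutant SCL cells. Thus 4 of the 5 arrays also allow a fit with construct (vector or mutant SCL) and cytokine as additive terms (limma, 1 residual degree of freedom). The fit takes any dependence between these terms as error. For mutant SCL minus vector, 0 of 11174 probe sets (0.0%) had an adjusted p under 0.05, and 887 (7.94%) had an unadjusted p under 0.05. For SF minus Epo the numbers were 0 (0.0%) and 465 (4.16%). PMAIP1 was the 1 of 11 member probe sets at an unadjusted p under 0.05 in either. Its mutant SCL difference was −0.52 (95% interval −0.73 to −0.31, limma adjusted p = 0.59), lower under both cytokines. Its SF minus Epo difference was −0.49 (95% interval −0.69 to −0.28, limma adjusted p = 0.79), lower in both kinds of cells. Neither passed the correction, and both intervals rest on the same residual, so they are not separate evidence. For BAK1, whose differences were opposite, the mutant SCL interval was wide, −1.18 to 1.06 about −0.06. The BID probe sets gave −0.26 and −0.18 for mutant SCL and the BCL2 ones 0.09, 0.22 and 0.21, all with intervals that include 0.

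Over the 6 comparisons, member probe sets reached 2-fold in 1 and not in the other 5. In those 5, the share of all probe sets at 2-fold in either direction was 0.666% for SF against GM-CSF, 0.0425% for SF against Epo in vector cells, 0.434% and 0.381% for mutant SCL under SF and Epo, and 0.233% for SF against Epo in mutant SCL cells. With 11 or 12 member probe sets compared, counts of 0 are near that background. At 1.5-fold, 2 of 12 members differed for SF against GM-CSF (8.4% of all probe sets) and 1 of 12 for Epo against GM-CSF (15.3%). SF against Epo in vector cells (1.62% of all) and the mutant SCL comparisons (5.37% and 3.49%) had no member at 1.5-fold. By gene, the median of the 8 members was between −0.07 and 0.13 in the 6 comparisons, and that of all genes was 0.00 in each.

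Other genes of the pathway were read from 5 further lists, 75 genes with 61 on the array. Of 13 other BCL2 family genes compared, 0 were 2-fold different with Epo against GM-CSF and 3 were 1.5-fold higher, where 13.2% of all genes were. These were BNIP3, a mitophagy relative of BNIP3L (0.95, with 0.04 for its other probe set), BCL2L13 (0.91) and BCLAF1 (0.86, with 0.35 and 0.70 for its other probe sets). Of 15 genes of the mitochondrial death pathway, 2 were 2-fold higher with Epo. VDAC1, a channel of the outer mitochondrial membrane, gave 1.31, but its other probe sets gave −0.03 and 0.00. HTRA2, a mitochondrial protease that blocks inhibitors of caspases once released, gave 1.24 and 0.52 in its second probe set. Neither reached 2-fold under quantile normalization or with the mean of all its probe sets. BIRC2, an inhibitor of apoptosis that binds caspases, was just short of 2-fold higher (0.98). With SF against GM-CSF, VDAC1 (0.89), HTRA2 (0.86), BIRC2 (0.67), BCL2L13 (0.66) and BNIP3 (0.63) were also 1.5-fold higher. So were 7.06% of all probe sets, a share by probe set and not by gene, and BCLAF1 was not. In this comparison other probe sets gave −0.03 and 0.44 for VDAC1, 0.36 for HTRA2 and 0.04 for BNIP3, all short of 1.5-fold. By gene, 3.46% of all genes compared were 2-fold or more higher with Epo. The median of the mitochondrial list was 0.21, with 11 of 15 above 0, while the median of all genes was 0.00, with 45.3% above 0. This median was taken on the values as deposited and not under the other normalizations. Under quantile normalization the members that moved by more than 1 spread in this comparison all moved lower. They were MCL1 (−0.09 to −0.38), BCL2L1 (0.08 to −0.21) and BID (0.20 to −0.08). The part of normalization in the list median was not tested.

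The death receptor genes (9 compared, and 8 for SF against Epo in vector cells), the p53 and FOXO genes (8) and the genes of BCL2 protein turnover and mitophagy (11) had 0 members at 2-fold in any of the 6 comparisons. PMAIP1 is a target of p53, and among the p53 and FOXO genes GADD45A, another p53 target, was 0.62 higher with Epo than with GM-CSF, while CDKN1A, the best known one, was 0.30 lower. In the same comparison FASLG, the ligand of the death receptor FAS, was 0.63 lower, with its Epo signal under the floor. With SF against GM-CSF it was also 0.63 lower, again with a signal under the floor. TRIM17, of the turnover list, was 0.72 lower with Epo than with GM-CSF, with an Epo signal (4.58) close to the floor. With mutant SCL under Epo, 1 gene of the mitochondrial list was 1.5-fold lower, HTRA2 (−0.71, other probe set −0.17), as were 2.78% of all genes. With mutant SCL under SF, the ubiquitin ligase gene FBXW7, which marks MCL1 for breakdown, was 0.80 higher, and USP9X, which removes ubiquitin from MCL1, was 0.65 lower (−0.40 in its other probe set). GABARAPL1, of the autophagosome coat that BNIP3L binds, was 0.74 higher. Of all genes 5.1% differed by 1.5-fold in that comparison. The vector SF array was the lowest of the 5 for FBXW7 (4.57, near the floor) and GABARAPL1 (5.86), and the highest for USP9X (8.06). With GM-CSF in vector cells they read 5.08, 6.46 and 7.40, and with SF in mutant SCL cells 5.37, 6.60 and 7.41. Both SF arrays were also the extremes in 3' minus 5' signal of beta-actin, and the part of array quality was not tested. Under Epo none of these 3 passed 1.5-fold, and whether the cytokines differ in this was not tested.

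As checks on the cells, the 10 erythroid and progenitor markers on the array, among them KIT, EPOR, GATA1 and TFRC, were above the floor on all 5 arrays, CSF2RA only narrowly (4.60 to 4.82). Both monocyte markers, and 2 of the 3 granulocyte markers, were under it on all. The 3 T cell markers and CD79A of B cells were above it, so being above the floor is no proof of expression; the summed log2 level of the T cell markers ran from 17.0 to 17.6. The brightest TAL1 probe set read 8.31 and 8.59 in vector cells with SF and Epo and 8.29 and 8.31 in mutant SCL cells, and the second read 7.49 and 7.56 in vector cells and 7.55 and 7.75 in mutant SCL cells. They point in opposite directions, so TAL1 does not check the mutant labels. The place of these probes relative to the construct was not determined here.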

How the data were processed

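The authors deposited 1 log2 signal per probe set and array, for 22283 probe sets including 68 controls, from Affymetrix arrays; the biotin labelling follows the maker's small-sample protocol, per the labels' protocols. The summary method, its software and any normalization are not given in the sources used here, and the log2 unit was inferred from the deposited values (2.08 to 13.77). Column medians were 4.89 to 4.98. Values were used as deposited. A summary that shares information across arrays can compress weak differences and repeat values. The platform annotation named 19065 probe sets with 1 symbol; 1043 with several were left out.

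Values under the floor (40th percentile, 4.45) were set to it, and a probe set was compared when at least 1 of the 2 arrays was above it. The brightest probe set stood for a gene. A difference of 2-fold was counted. The spread of a difference was the scaled median absolute deviation, in 10 bins of signal, of the gap between the mutant SCL differences under SF and Epo, divided by the square root of 2. With 1 array per group, the number of arrays limits the precision. A limma fit with construct (vector or mutant SCL) and cytokine as additive terms was added after seeing the data. It used the 4 SF and Epo arrays, probe sets above the floor on all of them, a trended prior and Benjamini-Hochberg adjustment over all. Named were all members, wider-list genes at 2-fold, and the 3 genes nearest in profile to the 2 members with the widest range. Some wider-list genes at 1.5-fold were also named, after their values were seen, and others were not. Members and lists were chosen with earlier results of these data known. Alternatives were quantile normalization and cyclic loess (limma 3.58.1, R 4.3.3), median centring, no floor, a floor at the 60th percentile, 1.5-fold, and the mean of all probe sets. Counting and the fit were run on simulated data. The simulation for the fit gave all probe sets the same error, unlike the real data. It therefore does not show how many true changes the fit could call here. Tools were Python 3.11.15, numpy 2.4.6, pandas 2.3.3 and matplotlib 3.10.9.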

Additional observations from a re-analysis of the deposited data

Results flagged for a closer look

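BAK1 stood out because its difference with mutant SCL had opposite directions under the 2 cytokines, −0.56 under SF and 0.44 under Epo. Each group had 1 array, so this difference between cytokines was not tested. BAK1 has 1 probe set, and no second one could be set beside it. Opposite directions, both over 2 spreads, were seen in 0.317% of the 11038 probe sets above the floor on all arrays. With the floor at the 60th percentile the BAK1 differences were −0.07 under SF and 0.19 under Epo. The mutant SCL SF and vector SF arrays were the highest and lowest in 3' minus 5' signal of beta-actin (3.33 and 1.89).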

How the results depend on the processing

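The count of member probe sets at 2-fold with Epo against GM-CSF was 1 as reported and under quantile normalization, median centring, cyclic loess and no floor, and 0 with the floor at the 60th percentile, which lies above the PMAIP1 signal on 4 of the 5 arrays. At 1.5-fold the count rose from 0 to 2 for SF against GM-CSF and from 0 to 1 for SF against Epo in mutant SCL cells. PMAIP1 was 0.39 higher with Epo than with GM-CSF under the higher floor and 0.06 with the mean of its probe sets, since the second lies under the floor. Between 1.09 and 1.21 was found under the other settings. Of 270 differences of member genes over all alternatives, 252 moved by less than 1 spread and 18 by more; 15 changed sign, 4 of them by over 1 spread. Under quantile normalization those were BID (−0.12 with SF and −0.08 with Epo, against GM-CSF) and BCL2L1 (−0.21 with Epo against GM-CSF), and with the mean of probe sets BCL2 (−0.04 for SF minus Epo in vector cells); the cause was not tested. The count of 2 mitochondrial pathway genes with Epo became 0 under quantile normalization and with the mean of probe sets, and other BCL2 family genes rose from 0 to 1 under median centring and cyclic loess; these list counts were added after seeing the data. The additive fit over 4 arrays, added after seeing the data, called 0 probe sets under each normalization and floor; adjusted p for PMAIP1 ran from 0.328 to 0.673 for mutant SCL and from 0.755 to 0.866 for SF minus Epo over the 5 settings that tested it. Signals near the floor, as those of PMAIP1 and BAK1 are on some arrays, limit how far their differences can be read.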
